A study of Mus musculus with 22 samples.

Results

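The Cyp2c genes encode cytochrome P450 monooxygenases of the liver endoplasmic reticulum. The 10 members described here are Cyp2c29, Cyp2c37, Cyp2c38, Cyp2c39, Cyp2c40, Cyp2c50, Cyp2c54, Cyp2c55, Cyp2c69 and Cyp2c70, taken by gene symbol from both deposited count tables, which list 45777 genes and 16 genes named Cyp2c. All 10 members passed the filter on low counts in both cohorts. The other 6 genes named Cyp2c are given beside them where they had counts.

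The RNA came from livers of male wild-type C57BL/6J mice, sequenced as 22 libraries in 2 cohorts of 11. In the HFD cohort, 3 libraries came from normal diet (ND) with vehicle, 4 from high-fat diet (HFD) with vehicle and 4 from HFD with DTMB, and the diet groups carry the disease label MASLD, metabolic dysfunction-associated steatotic liver disease. In the MCD cohort, 4 libraries came from ND with vehicle, 4 from methionine-choline-deficient (MCD) diet with vehicle and 3 from MCD with DTMB, labelled MASH, the inflammatory form of that disease. DTMB is a compound known here by its code name, given by mouth at 10 mg/kg/day. No group of normal-diet mice received DTMB, and the sources used here give neither ages nor times on diet. The labels number the replicates as biological replicates.

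A P450 holds a haem whose iron binds oxygen, and takes electrons from the reductase encoded by Por. CYP2C enzymes oxidise drugs and steroids, and several mouse members turn arachidonic and linoleic acid into epoxides, signalling lipids that soluble epoxide hydrolase (Ephx2) then opens. Cyp2c70 stands apart by its substrate: in mouse liver it makes muricholic acids, the hydrophilic bile acids of rodents. In hepatocytes the family is controlled by HNF4A, by the drug-sensing receptors PXR (Nr1i2) and CAR (Nr1i3), and by growth hormone.

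All 10 members lie within one cluster on chromosome 19 of the mouse genome (GRCm38.p6, mm10, RefSeq positions), from Cyp2c55 at chr19:39006940-39042690 on the plus strand to Cyp2c70 at chr19:40153361-40187286 on the minus strand. Some of their coding regions are close copies of one another and others are not. Identity over the longest open reading frame ran from 61.8% to 97.9% in the 45 pairs, and was 97.9% for Cyp2c40 and Cyp2c69, 96.1% for Cyp2c37 and Cyp2c50, 95.2% for Cyp2c50 and Cyp2c54, 95.1% for Cyp2c37 and Cyp2c54, and 94.2% for Cyp2c38 and Cyp2c39. Cyp2c55 was at most 77.5% and Cyp2c70 at most 69.5% identical to any other member. The stretch of 30 coding bases around the cysteine that holds the haem shows both the shared catalytic core and the subfamilies. The capitals mark the cysteine codon, and the sequences are from GENCODE vM21 transcripts.
Cyp2c29: ttttcaacaggaaaacggattTGTgctgga
Cyp2c37: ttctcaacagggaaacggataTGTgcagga
Cyp2c38: ttctcagcaggaaaacgggttTGTgctgga
Cyp2c39: ttctcagcaggaaaacgtgttTGTgctgga
Cyp2c40: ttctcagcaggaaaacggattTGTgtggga
Cyp2c50: ttctcaacaggaaaacggataTGTgcagga
Cyp2c54: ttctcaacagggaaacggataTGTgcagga
Cyp2c55: ttctcaataggaaagcgaatgTGCgtggga
Cyp2c69: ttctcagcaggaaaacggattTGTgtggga
Cyp2c70: ttctcagcaggaagaagagctTGTattgga
Cyp2c37 and Cyp2c54 have the same 30 bases there, and so do Cyp2c40 and Cyp2c69.

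Copies this close limit what a gene count can tell. Of all windows of 100 bases, 44.1% in the Cyp2c40 transcript and 36.3% in that of Cyp2c69 occurred unchanged in a transcript of another gene, against 9.4% for Cyp2c50, 7.59% for Cyp2c54, 4.7% for Cyp2c37 and 0 for the other 5 members. The sources used here do not say how reads that match several genes were counted, so Cyp2c40 and Cyp2c69 values are uncertain for the single gene. The RefSeq span of Cyp2c39 also encloses Cyp2c38 on the opposite strand, while the GENCODE span does not. The library kit keeps strand, but whether counting used it is not stated.

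The 250 bases before the annotated start site were compared because some pairs of copies moved together in these livers and some did not. RefSeq held an entry for 9 of the 10 members. For Cyp2c39 the entry with the highest position was used, which lies inside the RefSeq gene span that begins at 39347346. The Cyp2c38 window reaches past its RefSeq gene end at 39463103 into the gene. The identities and motif counts below depend on these start sites. By identity over the whole alignment, the highest values were 84.3% for Cyp2c37 with Cyp2c50, 77.5% for Cyp2c40 with Cyp2c69 and 71% for Cyp2c38 with Cyp2c39. Unmatched ends count as differences in these values. Cyp2c40 and Cyp2c69 have nearly the same stretch, with CAAAGTCCA at -45 in Cyp2c40 and at -75 in Cyp2c69. Their 77.5% thus reflects in large part the offset of the start sites, and the order of the pairs is not one of sequence likeness alone. These 6 are printed in gene orientation from chr19:39992174-39992423 (plus strand), chr19:40089429-40089678 (plus), chr19:39812815-39813064 (minus), chr19:39886770-39887019 (minus), chr19:39463076-39463325 (minus) and chr19:39510572-39510821 (plus). Capitals mark the letters CAAAGTCCA, an HNF4 motif, in Cyp2c40 and Cyp2c69, and TGTTTAC, a FOXA motif, in Cyp2c38 and Cyp2c39.
Cyp2c37: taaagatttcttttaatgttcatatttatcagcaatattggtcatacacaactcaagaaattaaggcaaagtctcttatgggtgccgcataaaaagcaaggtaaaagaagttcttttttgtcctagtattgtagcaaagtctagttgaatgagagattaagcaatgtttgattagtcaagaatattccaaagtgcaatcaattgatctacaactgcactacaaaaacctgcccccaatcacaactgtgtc
Cyp2c50: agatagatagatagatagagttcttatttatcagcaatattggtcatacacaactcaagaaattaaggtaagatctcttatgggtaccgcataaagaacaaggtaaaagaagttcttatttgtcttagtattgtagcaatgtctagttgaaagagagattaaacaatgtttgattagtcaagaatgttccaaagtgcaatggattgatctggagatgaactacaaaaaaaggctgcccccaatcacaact
Cyp2c40: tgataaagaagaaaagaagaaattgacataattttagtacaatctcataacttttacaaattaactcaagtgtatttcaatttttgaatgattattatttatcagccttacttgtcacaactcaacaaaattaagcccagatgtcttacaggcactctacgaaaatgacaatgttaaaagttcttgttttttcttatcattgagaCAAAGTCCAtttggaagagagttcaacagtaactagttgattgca
Cyp2c69: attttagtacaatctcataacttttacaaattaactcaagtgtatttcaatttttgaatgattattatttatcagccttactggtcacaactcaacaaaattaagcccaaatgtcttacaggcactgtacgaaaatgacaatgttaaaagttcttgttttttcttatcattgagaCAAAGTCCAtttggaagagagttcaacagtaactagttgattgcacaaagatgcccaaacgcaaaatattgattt
Cyp2c38: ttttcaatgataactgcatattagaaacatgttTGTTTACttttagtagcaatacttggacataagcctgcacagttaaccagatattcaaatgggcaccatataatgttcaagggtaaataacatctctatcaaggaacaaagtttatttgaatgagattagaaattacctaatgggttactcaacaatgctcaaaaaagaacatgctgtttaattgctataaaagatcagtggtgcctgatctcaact
Cyp2c39: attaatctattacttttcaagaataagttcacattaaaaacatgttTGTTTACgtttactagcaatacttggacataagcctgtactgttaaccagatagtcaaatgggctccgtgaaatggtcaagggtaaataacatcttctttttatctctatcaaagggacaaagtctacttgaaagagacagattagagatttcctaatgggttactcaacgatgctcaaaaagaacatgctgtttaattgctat
On either strand, CAAAGTCCA was found in 3 of the 9 members (Cyp2c40, Cyp2c69 and Cyp2c70) and in 0.387% of 32536 mouse promoters of the same length. TGTTTAC was found in 2 of 9 (Cyp2c38 and Cyp2c39) and in 3.17% of promoters. Cyp2c40 and Cyp2c69 are copies of each other, as are Cyp2c38 and Cyp2c39, so their matches are not independent and these counts show no enrichment. TATAAA was found in 4 of 9 (12.3% of promoters), the nuclear receptor motif AGGTCA in 2 of 9 (14%), and neither the STAT5 motif TTCNNNGAA (7.04%) nor the HNF1 motif (0.375%) was found in any of the 9. A match describes letters in this window and is not evidence of binding.

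Library totals ran from 50078966 to 66727450 counts. Levels are in CPM, the count as a share of the library's total rescaled to the usual counts-per-million unit, with totals scaled by the TMM method inside a cohort, and a level in one cohort cannot be read against a level in the other. Differences were tested with edgeR's quasi-likelihood test, and called at a Benjamini-Hochberg adjusted p under 0.05 over all genes tested (15597 in the HFD and 16037 in the MCD cohort). All 12 hepatocyte markers listed were measured, and their summed level was 85482 to 136767 CPM over the 22 libraries. This and every other marker sum is a share of the unscaled library total, without TMM factors, unlike the members' CPM. The factors ran from 0.785 in MCD-cohort ND replicate 4 to 1.21 in MCD vehicle replicate 2. Traces of pancreas were uneven: 23 acinar markers summed to over 100 CPM in 6 libraries, which were HFD-cohort ND replicates 1 and 3, HFD vehicle replicates 1 and 4, HFD with DTMB replicate 3 and MCD-cohort ND replicate 4. Muscle markers reached 235.6 CPM in HFD-cohort ND replicate 1. Member counts are given with and without these libraries, beside the share of all genes called in the same setting. In whole liver, fewer cells of a type and less RNA per cell cannot be told apart.

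Per kilobase of transcript, the scale on which genes can be compared with each other, the members fell into an abundant and a scarce set in both normal-diet groups. Length was that of a single transcript per gene, the one with the longest open reading frame. It was 2869 bases for Cyp2c38 and 1646 to 1995 for the other members, so the order of close members depends on that choice. In the HFD cohort on normal diet Cyp2c29 had 280 ± 22.6 CPM per kb (SD, n = 3), Cyp2c50 261 ± 41.3, Cyp2c37 182 ± 18.0, Cyp2c54 114 ± 24.4, Cyp2c70 65.8 ± 6.44, Cyp2c38 20.7 ± 3.85, Cyp2c40 19.3 ± 3.64, Cyp2c69 12.0 ± 3.54, Cyp2c39 5.58 ± 0.254 and Cyp2c55 0.749 ± 0.171. Neighbours Cyp2c29 and Cyp2c50, and Cyp2c38 and Cyp2c40, differed by less than their SDs. On normal diet in the MCD cohort Cyp2c29 was again first, with 743 ± 101 CPM per kb (SD, n = 4), followed by Cyp2c50 with 478 ± 195, Cyp2c70 with 360 ± 59.6, Cyp2c37 with 201 ± 94.8 and Cyp2c54 with 175 ± 81.7. The last place there was taken by Cyp2c39 with 1.41 ± 0.549, below Cyp2c55 with 7.91 ± 5.18, Cyp2c38 with 13.5 ± 3.16, Cyp2c69 with 15.0 ± 6.94 and Cyp2c40 with 32.5 ± 14.0. Before division by length, Cyp2c38 (mean 38.8 CPM) was above Cyp2c69 (24.7 CPM) in that group. Cyp2c70 ranked below Cyp2c37 and Cyp2c54 in one normal-diet group and above both in the other, and these levels come from separately scaled cohorts and were not tested against each other.

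**Figure D1:**
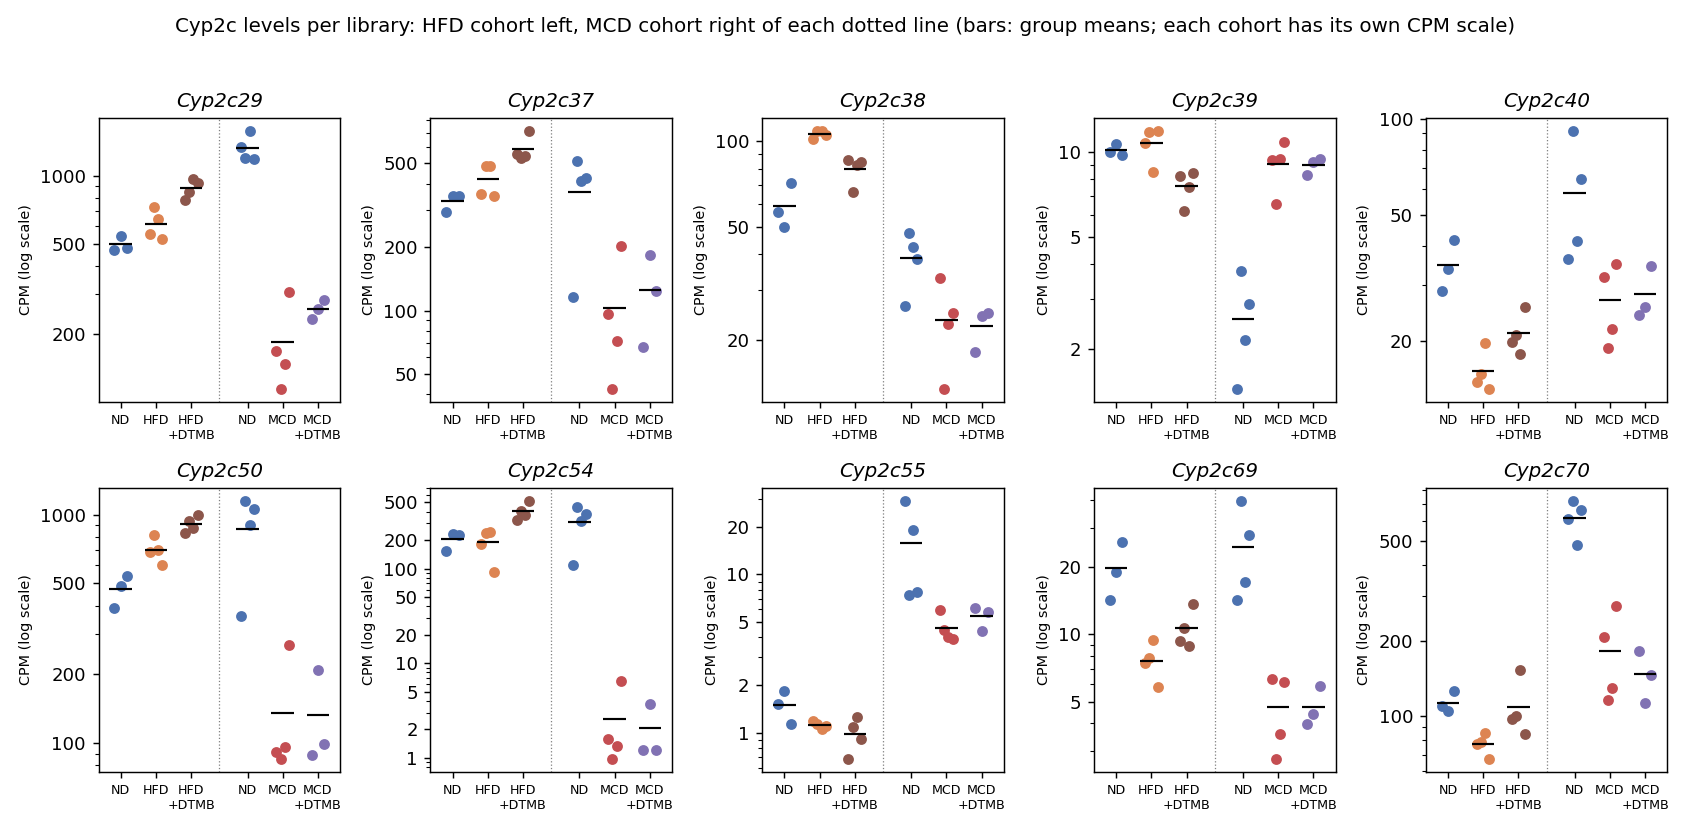
CPM of each of the 10 members in each library (points, log axis) with the group mean (bar), for ND, HFD and HFD with DTMB in the HFD cohort and ND, MCD and MCD with DTMB in the MCD cohort. Cyp2c54 sits between 0.977 and 6.42 CPM in the MCD vehicle libraries and between 109 and 450 CPM on normal diet, and Cyp2c39 is the one member whose MCD libraries lie above normal diet.

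On high-fat diet the members moved in both directions. Cyp2c38 rose 1.79-fold and Cyp2c50 1.48-fold, while Cyp2c69 fell 2.59-fold, Cyp2c40 2.15-fold and Cyp2c70 1.46-fold. That is 2 of 10 higher and 3 of 10 lower, where 15.2% of all tested genes were higher and 12.6% lower. The median log2 change of the members was -0.02, against 0.02 for all tested genes. The other 5, Cyp2c29, Cyp2c37, Cyp2c39, Cyp2c54 and Cyp2c55, did not pass the test.

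Cyp2c50 measured 391, 490 and 538 CPM on normal diet and 685, 818, 701 and 600 CPM on HFD. The groups did not overlap (log2 difference 0.57 ± 0.12 SE, adjusted p = 0.00523, edgeR). Its copy Cyp2c37 measured 293, 349 and 351 CPM on normal diet and 359, 488, 485 and 348 CPM on HFD, overlapping ranges with a log2 difference of 0.34 ± 0.15 (adjusted p = 0.0996). Cyp2c54, the other close copy, measured 154, 230 and 229 CPM and then 183, 235, 244 and 91.8 CPM, where HFD replicate 4 was below every normal-diet library (log2 -0.12 ± 0.28, adjusted p = 0.793). Cyp2c29, an abundant liver epoxygenase, measured 473, 546 and 480 CPM and then 556, 728, 647 and 529 CPM (0.30 ± 0.11, adjusted p = 0.0694).

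Cyp2c38 went from 56.5, 50.02 and 71.5 CPM on normal diet to 102, 109, 109 and 105 CPM on HFD, with no overlap (0.84 ± 0.12, adjusted p = 0.000481). Cyp2c39, a retinoic acid hydroxylase and the nearest copy of Cyp2c38, measured 9.75 to 10.7 CPM on normal diet and 8.52 to 11.9 CPM on HFD (0.08 ± 0.13, adjusted p = 0.668). So the 2 copies, 94.2% alike in coding sequence, had different outcomes in the same livers, although the difference between genes was not tested.

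The near copies Cyp2c40, which oxidises arachidonic acid to a hydroxy acid, and Cyp2c69 fell together. Cyp2c40 measured 28.8, 33.7 and 41.8 CPM on normal diet and 14.9, 15.8, 19.7 and 14.2 CPM on HFD (-1.10 ± 0.15, adjusted p = 0.000322). Cyp2c69 measured 14.3, 19.1 and 25.9 CPM and then 7.47, 7.81, 9.42 and 5.80 CPM (-1.37 ± 0.21, adjusted p = 0.000646). In both genes every HFD library was below every normal-diet library. With the sharing of windows given above, these may in part be the same reads.

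Cyp2c70, the muricholic acid enzyme, measured 109, 104 and 125 CPM on normal diet and 77.1, 79.0, 85.3 and 67.3 CPM on HFD, without overlap (-0.55 ± 0.17, adjusted p = 0.0283). Cyp2c55, known for its induction through PXR and CAR and for its expression in the colon, was scarce at 1.14 to 1.82 CPM and then 1.05 to 1.18 CPM (-0.42 ± 0.23, adjusted p = 0.203). Of the 10 members, 5 had groups that did not overlap, against 36% of all tested genes.

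The HFD calls were fewer without the acinar libraries, where 1 normal-diet and 2 HFD libraries remain: 3 members were called, Cyp2c38 (log2 1.11), Cyp2c40 (-0.93) and Cyp2c69 (-1.16), while Cyp2c50 had 0.62 (adjusted p = 0.0858) and Cyp2c70 -0.36 (adjusted p = 0.192). In that setting the share of all tested genes called went from 27.8% to 4.07%. With library size alone as the scale, which moves the median of all genes to 0.14, 4 members were higher and 2 lower, and 28.2% of all genes were called. Beside these values, the summed level of 12 pericentral hepatocyte markers was 10674 to 12938 CPM on normal diet and 16080 to 17706 CPM on HFD, and that of 12 periportal markers 9077 to 12031 and 6929 to 7772 CPM. Of 10 leukocyte and macrophage markers 3 rose and none fell, with sums of 90.7 to 158 CPM on normal diet and 138 to 398 CPM on HFD. Their part in the result was not tested.

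DTMB on high-fat diet was set against vehicle on the same diet. Cyp2c54 was 2.14-fold, Cyp2c29 1.43-fold, Cyp2c37 1.39-fold and Cyp2c50 1.30-fold higher with DTMB, and Cyp2c39 was 1.41-fold and Cyp2c38 1.33-fold lower. That is 4 of 10 higher, where 6.64% of all tested genes were higher, and 2 of 10 lower, where 6.04% were lower. The median log2 difference of the members was 0.43, against -0.01 for all tested genes. In the same comparison 2 of 10 leukocyte and macrophage markers were lower, with sums of 138 to 398 CPM with vehicle and 116 to 194 CPM with DTMB, and 4 of 12 hepatocyte markers were higher, with sums of 111368 to 115743 and 104689 to 118969 CPM. Their part in the result was not tested.

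The 4 members that were higher were those with the highest mean CPM on HFD with vehicle. Cyp2c54 measured 323, 408, 368 and 514 CPM with DTMB, all above the 91.8 to 244 CPM of HFD vehicle (1.10 ± 0.26, adjusted p = 0.0230, edgeR). Cyp2c29 measured 784, 847, 967 and 929 CPM, above the vehicle maximum of 728 CPM (0.52 ± 0.11, adjusted p = 0.0144). Cyp2c37 measured 551, 528, 542 and 711 CPM, above the vehicle maximum of 488 CPM (0.47 ± 0.13, adjusted p = 0.0401). For Cyp2c50 the DTMB libraries had 832, 942, 875 and 1001 CPM, the lowest of them just above the highest vehicle library at 818 CPM (0.38 ± 0.11, adjusted p = 0.0466).

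The pair Cyp2c38 and Cyp2c39 moved the other way. Cyp2c38 measured 86.2, 66.6, 82.5 and 84.7 CPM with DTMB, below the vehicle minimum of 102 CPM (-0.41 ± 0.11, adjusted p = 0.0348). Cyp2c39 measured 8.25, 6.18, 7.52 and 8.46 CPM, against 8.52 to 11.9 CPM with vehicle (-0.50 ± 0.12, adjusted p = 0.0233). The ranges of Cyp2c39 nearly met. Groups of 6 of the 10 members, the same 6 that were called, did not overlap, against 19.8% of all tested genes.

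The remaining 4 did not pass. Cyp2c40 had 18.3 to 25.6 CPM with DTMB (log2 0.39 ± 0.14, adjusted p = 0.0856), and Cyp2c69 had 8.87 to 13.6 CPM (0.48 ± 0.20, adjusted p = 0.121). Cyp2c70 had 97.4, 100, 152 and 84.7 CPM (0.49 ± 0.16, adjusted p = 0.0562), where replicate 4 was within the vehicle range. Cyp2c55 had 0.683 to 1.25 CPM (-0.18 ± 0.22, adjusted p = 0.608).

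These calls, like those of all genes, depended on single libraries. Without HFD vehicle replicate 1 none of the 10 was called (Cyp2c29 then had log2 0.47 with adjusted p = 0.0509), and without HFD vehicle replicate 4, or HFD with DTMB replicates 2, 3 or 4, the count was 2, 1, 2 and 2. The share of all genes called, 12.7% with every library, was 3.13% without HFD vehicle replicate 1 and 4.25%, 6.16%, 5.14% and 3.46% without the other four in that order. The count was 0 without the acinar libraries and also when all 22 libraries were fitted together, with log2 differences of 0.79 and 1.11 for Cyp2c54 and 0.31 and 0.53 for Cyp2c29. Without the acinar libraries this comparison called 0 of all 16101 genes tested, so the setting has no call to give for any gene, and in the joint fit 3.28% were called. With library size alone, 2 members were higher (Cyp2c29 and Cyp2c54) and 2 lower, and 17.9% of all genes were called. No difference changed sign in any of these settings.

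Against normal diet, HFD with DTMB had 5 members higher and 3 lower, where 15.7% and 13.5% of tested genes were. Cyp2c54 (0.98 ± 0.29), Cyp2c50 (0.95 ± 0.12), Cyp2c29 (0.82 ± 0.12), Cyp2c37 (0.82 ± 0.15) and Cyp2c38 (0.43 ± 0.12) were higher, and Cyp2c69 (-0.89 ± 0.21), Cyp2c40 (-0.71 ± 0.15) and Cyp2c39 (-0.41 ± 0.13) lower on the log2 scale. This comparison shares libraries with both of the others, so it is no independent evidence. Groups of 7 members did not overlap, against 35.4% of tested genes. Without normal-diet replicate 1 the count of called members was 5, and it was 2 without the acinar libraries or when all 22 libraries were fitted together. Of all genes 29.2% were called with every library, and 19.8%, 6.35% and 19.7% in those 3 settings.

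**Figure D2:**
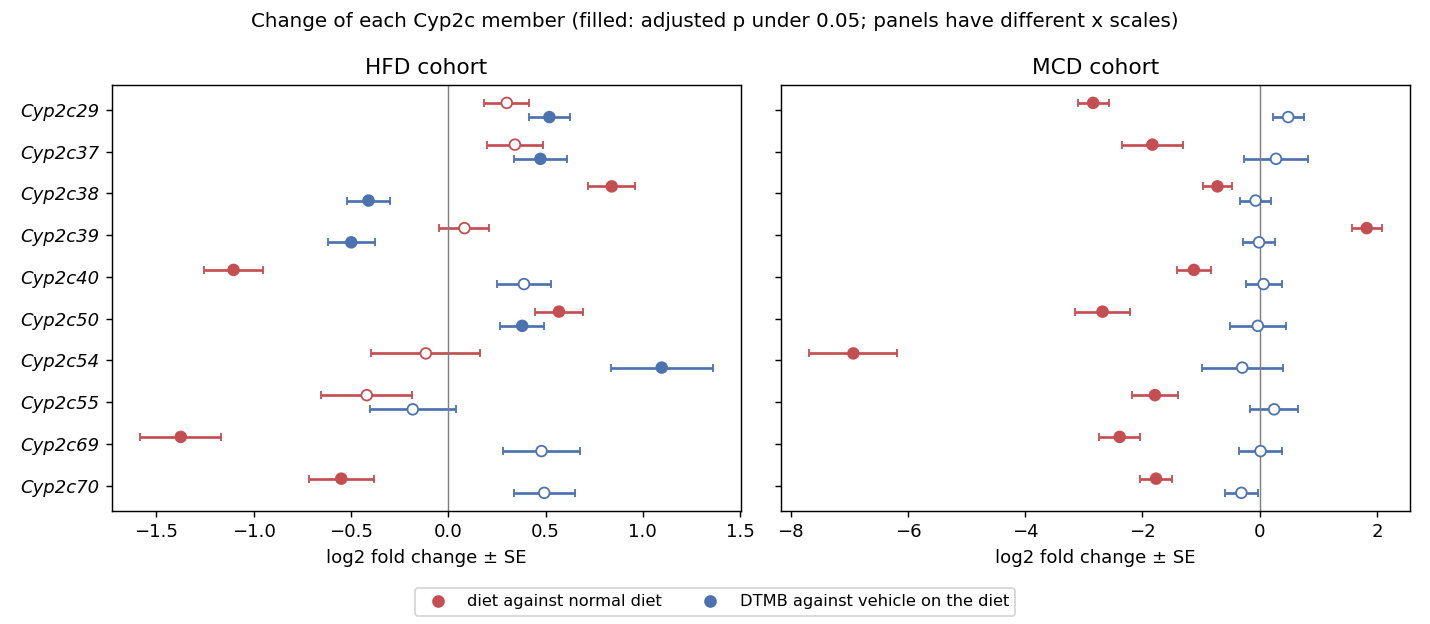
Log2 fold change ± SE of each member for the diet against normal diet (red) and for DTMB against vehicle on that diet (blue), filled where the adjusted p was under 0.05. In the HFD cohort the differences lie between -1.37 and 1.10, and in the MCD cohort the diet points reach -6.93 while no DTMB point is filled.

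The MCD diet lowered 9 of the 10 members and raised Cyp2c39. The falls were 122-fold for Cyp2c54, 7.17-fold for Cyp2c29, 6.41-fold for Cyp2c50, 5.24-fold for Cyp2c69, 3.56-fold for Cyp2c37, 3.45-fold for Cyp2c55, 3.40-fold for Cyp2c70, 2.18-fold for Cyp2c40 and 1.65-fold for Cyp2c38. Cyp2c39 rose 3.55-fold. Of all tested genes 21% were lower and 20.3% higher, and the members had a median log2 change of -1.81 against 0.00 for all tested genes.

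Cyp2c54 measured 109, 450, 317 and 373 CPM on normal diet and 1.59, 0.977, 1.33 and 6.42 CPM on MCD (-6.93 ± 0.75, adjusted p = 3.34e-05, edgeR). Its copy Cyp2c50, 95.2% alike, measured 359, 1146, 906 and 1057 CPM and then 91.1, 85.3, 96.0 and 269 CPM (-2.68 ± 0.47, adjusted p = 0.000936). The other close copy, Cyp2c37, measured 116, 513, 411 and 425 CPM and then 96.0, 42.5, 71.4 and 202 CPM, and its groups overlapped (-1.83 ± 0.52, adjusted p = 0.0149). The fall of Cyp2c54 was thus far deeper than that of its copies in the fitted values, a difference between genes that was not tested.

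In all 3 copies the same libraries stood out. Normal-diet replicate 1 was the lowest of its group and MCD vehicle replicate 4 the highest of its own. This was not particular to the 3 copies, since both also held for Cyp2c39 and Cyp2c40. Normal-diet replicate 1 was the lowest for Cyp2c38 and Cyp2c69 too, and MCD vehicle replicate 4 the highest for Cyp2c29 and Cyp2c70. Without normal-diet replicate 1 the log2 changes were -7.22 for Cyp2c54, -2.94 for Cyp2c50 and -2.13 for Cyp2c37, and without MCD vehicle replicate 4 they were -7.88, -3.23 and -2.37, all with adjusted p-values still under the threshold. In normal-diet replicate 1 the pericentral markers summed to 5577 CPM, against 8726 to 11061 in the other three libraries of that group, and the periportal markers to 17065, against 9252 to 11683 CPM. Their part in the low values was not tested.

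Cyp2c29 measured 1338, 1200, 1575 and 1186 CPM on normal diet and 170, 115, 147 and 307 CPM on MCD (-2.84 ± 0.26, adjusted p = 1.16e-05). The lowest normal-diet library was thus well above the highest MCD library. Cyp2c70 measured 610, 720, 481 and 665 CPM and then 207, 115, 129 and 276 CPM, also without overlap (-1.77 ± 0.27, adjusted p = 0.000333). Cyp2c69 measured 14.3, 39.4, 17.2 and 27.8 CPM and then 6.33, 2.77, 3.60 and 6.14 CPM (-2.39 ± 0.35, adjusted p = 0.000269).

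Cyp2c40 measured 36.3, 91.5, 41.5 and 64.8 CPM and then 31.7, 19.0, 21.9 and 34.9 CPM, groups that nearly met (-1.12 ± 0.29, adjusted p = 0.00850). Cyp2c55 measured 29.0, 7.40, 19.0 and 7.70 CPM and then 5.91, 4.44, 4.01 and 3.93 CPM (-1.79 ± 0.39, adjusted p = 0.00337). Here normal-diet replicate 1 was the highest of its group, the reverse of its place for Cyp2c37, Cyp2c50 and Cyp2c54, and without it the change was -1.32.

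Cyp2c38 and Cyp2c39 parted. Cyp2c39 measured 1.44, 3.77, 2.15 and 2.89 CPM on normal diet and 9.41, 6.54, 9.46 and 10.9 CPM on MCD, every MCD library above every normal-diet library (1.83 ± 0.26, adjusted p = 0.000213). Cyp2c38 measured 26.4, 47.6, 42.5 and 38.6 CPM and then 32.9, 13.5, 22.8 and 24.9 CPM, with overlap (-0.72 ± 0.25, adjusted p = 0.0345). The fall of Cyp2c38 is the weakest of the 9: it was -0.25 (adjusted p = 0.357) with library size alone, a scale that moves the median of all genes to 0.47, and it missed the threshold without any one of normal-diet replicates 2, 3 and 4 or MCD vehicle replicates 2, 3 and 4. The other 9 members kept their call without each library in turn.

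Of the 10 members, 8 had groups that did not overlap, 7 of them lower, against 37.7% of all tested genes, with 19.9% lower. The summed hepatocyte markers, without TMM factors, were 85482 to 126850 CPM on normal diet and 106117 to 136767 CPM on MCD, overlapping ranges. TMM factors were 0.785 to 0.894 and 1.03 to 1.21 in these groups, so the sums give no direction on the members' scale. In the edgeR fit 5 of the 12 genes fell and none rose (median log2 change -0.36), where 21% of all tested genes were lower. Markers of leukocytes and macrophages summed to 121.8 to 276.1 CPM on normal diet and 350.1 to 820.4 CPM on MCD. Of these 10 genes 5 rose and 1 fell, where 20.3% of all tested genes were higher and 21% lower. Pericentral markers summed to 5577 to 11061 CPM on normal diet and 10340 to 14651 CPM on MCD, again without TMM factors. In the fit 1 of the 12 rose and 3 fell, with a median log2 change of -0.13. The part of these markers in the result was not tested.

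With DTMB on MCD diet none of the 10 members was called against vehicle, by edgeR or by DESeq2, and none had an unadjusted p under 0.05. In this comparison 1 of all tested genes was called (0.00624%). The log2 differences ran from -0.31 ± 0.28 for Cyp2c70 to 0.49 ± 0.27 for Cyp2c29, with a median of 0.00. The groups overlapped for all 10, while 5.86% of all tested genes had groups that did not, 3.27% lower and 2.59% higher. Cyp2c29 measured 235, 259 and 284 CPM with DTMB and 115 to 307 CPM with vehicle. Cyp2c50 measured 88.7, 209 and 99.2 CPM and Cyp2c54 1.22, 3.74 and 1.21 CPM, with replicate 2 the highest in both. The SE of 0.48 for Cyp2c50 and 0.69 for Cyp2c54 leaves room for changes of the size seen on HFD, so the data do not show that DTMB had no effect.

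MCD with DTMB against normal diet again had Cyp2c39 higher (1.82 ± 0.27) and 8 members lower, from Cyp2c54 (-7.23 ± 0.87) to Cyp2c38 (-0.79 ± 0.27), where 32.6% of tested genes were called, 16.2% higher and 16.4% lower. Cyp2c37 was the exception (-1.55 ± 0.57, adjusted p = 0.0559). These libraries share their normal-diet group with the diet comparison.

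Summed over the 10 members, the transcript pool shows the scale of these changes. It was 1531 to 1872 CPM on normal diet, 1775 to 2494 CPM on HFD and 2712 to 3373 CPM on HFD with DTMB. In the MCD cohort it was 2640 to 4218 CPM on normal diet, 406 to 1141 CPM on MCD and 634 to 836 CPM on MCD with DTMB. The sums of HFD with DTMB were above those of every HFD vehicle library, and both MCD groups were below every normal-diet library of their cohort. The make-up of the pool changed too. Cyp2c54 was 8.60% of the mean pool on normal diet in the MCD cohort and 0.382% on MCD, while Cyp2c70 went from 17.1% to 26.9% of a smaller pool.

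**Figure D3:**
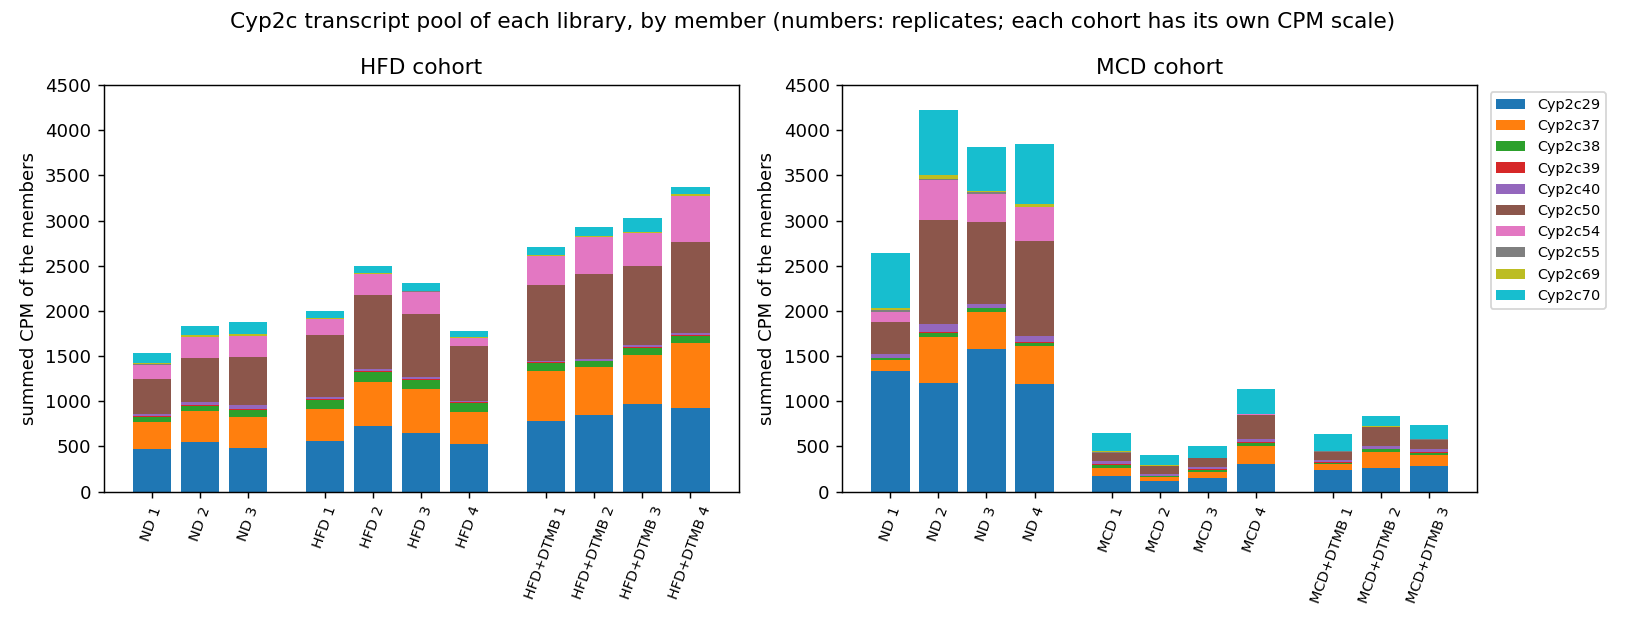
Summed CPM of the 10 members in each library, stacked by member, with HFD-cohort libraries on the left and MCD-cohort libraries on the right. Libraries of HFD with DTMB stand at 2712 to 3373 CPM and those of MCD with vehicle at 406 to 1141 CPM.

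Whether the diets differed in their effect was tested by fitting all 22 libraries together. The change on MCD minus that on HFD was called for 8 members, 1 higher and 7 lower, where 35.3% of 16541 tested genes were called, 16.8% higher and 18.5% lower. The differences, on the log2 scale, were -6.78 ± 0.82 for Cyp2c54, -3.22 ± 0.54 for Cyp2c50, -3.11 ± 0.31 for Cyp2c29, -2.14 ± 0.60 for Cyp2c37, -1.53 ± 0.30 for Cyp2c38, -1.34 ± 0.49 for Cyp2c55, -1.19 ± 0.34 for Cyp2c70 and 1.77 ± 0.30 for Cyp2c39. Cyp2c40 fell by about the same amount on both diets (difference 0.02 ± 0.35, adjusted p = 0.981), and the difference for Cyp2c69 was -0.98 ± 0.43 (adjusted p = 0.0876). Cyp2c38 and Cyp2c50 rose on HFD and fell on MCD. Without the acinar libraries 5 were called, and the differences of Cyp2c37 (-2.19), Cyp2c55 (-1.25) and Cyp2c70 (-1.35) missed the threshold, while the share of all genes called went from 35.3% to 13%. The call of Cyp2c55 was lost without any one of 11 of the 22 libraries, and without MCD-cohort normal-diet replicate 1 its difference was -0.87.

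The DTMB effect on MCD minus that on HFD was called for none of the 10 by edgeR or DESeq2, nor for any of the 16541 genes by edgeR. Only Cyp2c70 had an unadjusted p under 0.05, with -0.82 ± 0.34 (adjusted p = 0.516). So the passing of 6 members on HFD and of none on MCD is not shown to be a difference between the diets.

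**Figure D4:**
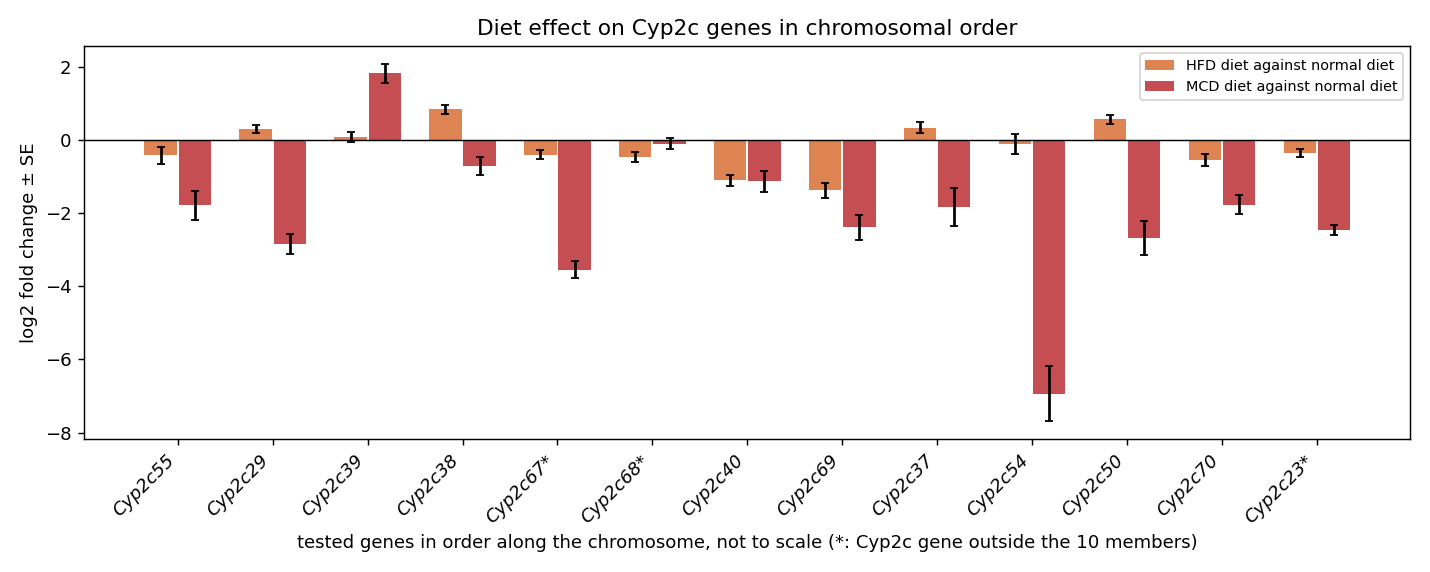
Log2 fold change ± SE on each diet against its normal diet for the 13 tested Cyp2c genes, with genes outside the 10 members starred. The genes are ordered by RefSeq start along chromosome 19, not to scale, which puts Cyp2c39 before Cyp2c38. Cyp2c39, next to Cyp2c38, is the only gene raised on MCD, and neighbours Cyp2c67 and Cyp2c68 show -3.55 and -0.10.

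Of the other 6 genes named Cyp2c, 3 were tested within the cohorts. Cyp2c67, which lies between Cyp2c39 and Cyp2c68, measured 286 to 402 CPM on normal diet and 17.6 to 36.0 CPM on MCD (-3.55 ± 0.23, adjusted p = 1.24e-06). Its neighbour Cyp2c68, 97.2% alike in coding sequence, measured 240 to 313 CPM and 185 to 319 CPM (-0.10 ± 0.16, adjusted p = 0.629). Windows shared with other transcripts made up 23.7% of Cyp2c67 and 19.8% of Cyp2c68. Cyp2c23, an epoxygenase gene several megabases away on the same chromosome, measured 377 to 467 CPM and then 62.5 to 84.2 CPM (-2.45 ± 0.14, adjusted p = 6.21e-07).

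On HFD all 3 fell, by -0.40 ± 0.13 for Cyp2c67, -0.47 ± 0.13 for Cyp2c68 and -0.36 ± 0.10 for Cyp2c23 on the log2 scale. With DTMB on HFD, Cyp2c67 was 1.32-fold higher (adjusted p = 0.0458), and Cyp2c68 (adjusted p = 0.0761) and Cyp2c23 (adjusted p = 0.0752) did not pass. Cyp2c66 had no count in any library, and Cyp2c65 and the pseudogene Cyp2c53-ps did not exceed 0.198 and 0.542 CPM.

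The partners of the CYP2C enzymes were read in the same fits. The counts in the lists that follow stand against 15.2% of all tested genes higher and 12.6% lower on HFD, 6.64% and 6.04% with DTMB on HFD, and 20.3% and 21% on MCD. As given above, no gene was called for DTMB on HFD without the acinar libraries, so the DTMB calls below, like that of Cyp2c67, rest on the full set of libraries. Por, the reductase that feeds them electrons, fell on HFD (-1.35 ± 0.19, adjusted p = 0.000386), was higher with DTMB on HFD (0.71 ± 0.18, adjusted p = 0.0261) and rose on MCD (1.49 ± 0.19, adjusted p = 0.000114), where 9 members fell. Its level was 386 to 694 CPM on normal diet, 153 to 252 CPM on HFD and 346 to 382 CPM on HFD with DTMB, and in the MCD cohort 243 to 357 CPM on normal diet and 574 to 1063 CPM on MCD, so that none of these groups overlapped the one it was compared with. Of 6 electron donors and epoxide hydrolases, 3 rose and 2 fell on HFD, and 1 rose and 4 fell on MCD. The soluble epoxide hydrolase Ephx2 fell on HFD (-0.51 ± 0.11) and on MCD (-0.68 ± 0.14). All 3 tested genes of the other epoxygenase family, Cyp2j, fell on MCD, with Cyp2j5 at -2.07 ± 0.16, and 2 of 3 rose on HFD, with Cyp2j5 at 0.33 ± 0.09.

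Among P450 genes outside Cyp2c, 17 of 65 rose and 20 fell on HFD, 10 were higher and 2 lower with DTMB on HFD, and 21 of 67 rose and 29 fell on MCD. Of 13 bile acid synthesis genes, the pathway Cyp2c70 belongs to, 9 fell and none rose on MCD, with the oxysterol hydroxylase Cyp7b1 at -4.02 ± 0.39 and Slc27a5, which activates bile acids for conjugation, at -1.88 ± 0.15. On HFD 4 rose and 1 fell, and Cyp7b1, the one that fell (-0.56 ± 0.19), was higher with DTMB (0.62 ± 0.17).

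Of 15 liver transcription factors and nuclear receptors, 1 rose and 4 fell on HFD, 4 were higher with DTMB on HFD, and 1 rose and 5 fell on MCD. Hnf4a fell on HFD (-0.55 ± 0.07) and on MCD (-0.43 ± 0.14) and was higher with DTMB on HFD (0.37 ± 0.07). Nr1i2 also fell on HFD (-0.43 ± 0.14) and was higher with DTMB (0.58 ± 0.13), and Nr1i3 was higher with DTMB (0.35 ± 0.10). Of 15 targets of PXR and CAR outside Cyp2c, 4 rose and 5 fell on HFD, 2 were higher and 2 lower with DTMB, and 3 rose and 6 fell on MCD, with the carboxylesterase Ces2a at -4.43 ± 0.25.

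Of 9 genes of the growth hormone axis 2 rose and 3 fell on HFD, and 1 rose and 3 fell on MCD. On MCD the receptor Ghr fell (-1.76 ± 0.13) and Cux2, a female-biased repressor, rose (4.13 ± 0.57). On HFD, Ghr rose (0.82 ± 0.08) and Cux2, at most 1.98 CPM in any library of that cohort, fell (-3.05 ± 0.85). All 18 male-biased genes listed fell on MCD, among them Selenbp2 (-5.12 ± 0.31) and C6 (-3.80 ± 0.19), and 14 of 17 tested female-biased genes outside Cyp2c rose, among them the P450 genes Cyp2b9 (9.24 ± 0.64) and Cyp2a4 (6.16 ± 0.38). On HFD 10 of 18 male-biased genes fell and 2 rose, while of 16 female-biased genes 6 rose and 7 fell, with a median log2 change of -1.30. With DTMB on HFD 6 male-biased genes and 1 female-biased gene were higher and none was lower. With DTMB on MCD none of the genes of these lists was called. The lists were not tested against other genes.

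The genes outside Cyp2c whose levels ran closest to 3 of the members were ranked over all 22 libraries and 7175 candidate genes. The measure was the root mean square difference of the log2 of CPM plus 1, centred within each cohort. Adding 1 shrinks differences between levels near 1 CPM, such as those of Cyp2c55 in the HFD cohort. For Cyp2c29 the closest genes were Cyp4f14 (0.22), Pipox (0.24), Afmid (0.26), Haao (0.28) and Ces1f (0.29), with a median of 0.98 over all candidates. For Cyp2c70 they were Aspdh (0.31), Slc27a5 (0.31), Lifr (0.32), Serpina1a (0.33) and Serpina1c (0.33), with a median of 0.74. For Cyp2c55 they were Ddc (0.30), Gabbr2 (0.32), Cbs (0.33), Gstm1 (0.33) and Smagp (0.34), with a median of 0.60. Within the family the closest pair was Cyp2c40 and Cyp2c69 (0.38), the pair that shares most sequence, and the farthest was Cyp2c39 and Cyp2c54 (2.84). These likenesses share libraries and diet groups and describe the pattern of levels only.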

How the data were processed

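PolyA-selected, stranded libraries were made from mouse liver, per the labels' protocols. The authors deposited raw read counts per gene for each cohort. The submitters' processing notes name the mm10 build with HISAT2 2.1.0 and StringTie 2.1.3b, and FastQC 0.11.7 with Trimmomatic 0.38. Settings, annotation and the handling of multi-mapping reads were not given in the sources used here.

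Counts were tested with edgeR 4.0.16 (R 4.3.3) using filterByExpr, TMM factors and the quasi-likelihood test, each cohort alone with its 3 groups, and both together for differences between cohorts. SE is the log2 fold change over the root of F. Calls are at a Benjamini-Hochberg adjusted p under 0.05, taken over every gene that passed the filter, whatever the fold. Other settings were RLE factors, library size alone, DESeq2 1.42.0, no filter, CPM above 1 in 3 libraries as the filter, a replicate block, one fit of all 22 libraries, leaving out each library, and leaving out those with summed acinar markers above 100 CPM. The tests were tried on counts simulated with the spread that edgeR estimated in these data. Such counts hold no uneven traces of other tissues, so the trial does not show how the tests behave with them. Every pair of libraries in a group differed by more than counting noise (chi-square over its degrees of freedom at least 24.9). Sequence comparisons used Biopython 1.88 with GENCODE vM21 transcripts and RefSeq promoters (GRCm38.p6). Percent identity is over the whole alignment, with gaps and unmatched ends counted as differences.

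The members and gene lists were chosen with earlier results of these data known. Named genes are all 10 members, the other Cyp2c genes, up to 3 genes of smallest p in each other list with those needed beside a result, and the 5 genes nearest in pattern to Cyp2c29, Cyp2c70 and Cyp2c55. All p-values weigh a difference between groups against the estimated spread between the libraries.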

Additional observations from a re-analysis of the deposited data

Results flagged for a closer look

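In the 40 combinations of a member and a group of 4 libraries, 3 had 1 library far from the others by Dixon's ratio, where chance gives about 1 in 20. Cyp2c37 was 711 CPM in HFD with DTMB replicate 4, with the next library at 551 CPM. Cyp2c50 was 269 CPM in MCD vehicle replicate 4, with the next at 96.0 CPM. Cyp2c54 was 6.42 CPM in the same library, with the next at 1.59 CPM.

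The effect of the diet differed between the cohorts by the interaction test in edgeR for 8 members. On the log2 scale, MCD minus HFD was -3.11 for Cyp2c29, -2.14 for Cyp2c37, -1.53 for Cyp2c38, 1.77 for Cyp2c39, -3.22 for Cyp2c50, -6.78 for Cyp2c54, -1.34 for Cyp2c55 and -1.19 for Cyp2c70. The cohorts differ in diet, in their normal-diet group and in the table they were deposited in, which cannot be told apart here.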

How the results depend on the processing

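Without libraries with acinar transcripts, members called fell from 5 to 3 for the HFD diet, 6 to 0 for DTMB on HFD, 8 to 2 for HFD with DTMB against normal diet and 8 to 5 for the difference between diets, while the share of all genes called fell from 27.8% to 4.07%, 12.7% to 0%, 29.2% to 6.35% and 35.3% to 13%. When all 22 libraries were fitted together the first 3 counts were 3, 0 and 2, with 18.3%, 3.28% and 19.7% of all genes called. Leaving out 1 library gave 4 to 5, 0 to 6, 5 to 8, 9 to 10 (MCD diet), 0 to 0 (DTMB on MCD), 6 to 10 (MCD with DTMB against normal diet), 7 to 8 (difference between diets) and 0 to 0 (difference between DTMB effects). The other settings kept each count within 1.5 times.

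Whether same-numbered libraries pair is not stated. Their deviations correlated from -0.53 to 0.49 in the HFD and from -0.41 to 0.12 in the MCD cohort, and so few libraries cannot decide it. With a replicate block the 8 counts, in the same order, were 5, 5, 8, 9, 0, 7, 8 and 0.

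Signs changed only in differences that were not called. On HFD, Cyp2c39 was -0.077 and Cyp2c54 0.047 without acinar libraries, and Cyp2c54 2.4e-05 with library size alone. Cyp2c70 was 0.0030 with a replicate block for HFD with DTMB against normal diet. For DTMB on MCD the replicate block gave 0.057 for Cyp2c39, 0.26 for Cyp2c50 and 0.13 for Cyp2c54, and library size alone gave -0.015 for Cyp2c40 and -0.064 for Cyp2c69. The difference between diets was -0.11 for Cyp2c40 without acinar libraries, and the difference between DTMB effects for Cyp2c29 was 0.052 with library size alone, 0.14 with the block and 0.16 without acinar libraries. Leaving out 1 library gave -0.29 to 0.11 for Cyp2c54 on HFD and -0.26 to 0.026 for Cyp2c70 in HFD with DTMB against normal diet. For DTMB on MCD it gave -0.11 to 0.82 for Cyp2c37, -0.26 to 0.14 for Cyp2c38, -0.14 to 0.069 for Cyp2c39, -0.11 to 0.20 for Cyp2c40, -0.52 to 0.52 for Cyp2c50, -1.07 to 0.66 for Cyp2c54 and -0.17 to 0.19 for Cyp2c69. It gave -0.16 to 0.31 for Cyp2c40 in the difference between diets, and -0.22 to 0.31 for Cyp2c29, -0.59 to 0.35 for Cyp2c37 and -0.91 to 0.14 for Cyp2c50 in the difference between DTMB effects. The cause was not tested. Groups of 3 or 4 libraries, rather than depth, limit the precision of the abundant members.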
